A study of Mus musculus with 4 samples.

Results

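Chrna2, which encodes a subunit of the nicotinic acetylcholine receptor, and the genes of the creatine cycle were examined in inguinal white adipose tissue of mice, a subcutaneous fat depot. The 8 genes were chosen by name, with earlier results of these data known, and 7 of the 8 had a value among the 13677 genes measured. The 7 were Chrna2, Ckb, Ckmt2, Gatm, Gamt, Slc6a8 and Alpl, while Ckmt1 had no value. RNA sequencing covered 2 libraries labelled FLCNKO and 2 labelled WT, where FLCNKO stands for a deletion in adipose tissue of Flcn, which encodes the tumour suppressor folliculin. All 4 libraries came from the same tissue, and neither group had a further treatment in the labels. The Cre line or promoter behind the deletion, the deleted part of Flcn, the age and sex of the mice and whether tissue was pooled are not stated in the sources at hand. No label ties a library to a separate animal, so every p-value below measures only the spread between these libraries, which may be technical.

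In the creatine cycle, a cell makes or imports creatine, a creatine kinase charges it to phosphocreatine with ATP, and phosphocreatine is split again so that ATP keeps being used. In thermogenic fat, splitting it with no other work done releases heat, a route known as futile creatine cycling. Gatm and Gamt encode the enzymes of creatine synthesis, Slc6a8 the creatine transporter, Ckb the cytosolic brain-type creatine kinase, Ckmt1 and Ckmt2 the mitochondrial creatine kinases, and Alpl the tissue-nonspecific alkaline phosphatase that hydrolyses phosphocreatine. Chrna2 is known in mice as a receptor subunit of beige fat cells, through which acetylcholine from immune cells raises their thermogenic genes.

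Values are the authors' deposited log2 expression values, on a scale with nearly the same distribution in each library. Library medians lay between 10.7636 and 10.7645, the highest value was 21.66 in all 4 libraries, and the lowest was 1.0 in 3 libraries and 2.37 in FLCNKO replicate 2. Sequencing depth is unknown, and the values carry no correction for gene length known here, so levels were compared between libraries and not between genes. The tissue label was checked against fat cell markers: the adiponectin gene Adipoq stood at 17.72 and 17.85 in FLCNKO libraries and 18.31 and 18.17 in WT libraries, and the 12 white adipocyte markers had medians of 16.49 and 17.26 in FLCNKO libraries and 16.86 and 16.98 in WT libraries. Flcn itself stood at 12.35 and 12.12 in FLCNKO libraries and at 12.36 and 12.21 in WT libraries (log2 difference -0.05 ± 0.13 SE, adjusted p = 0.852, limma). The whole-gene value of Flcn thus did not separate the groups, and the labels were used as given.

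The 7 genes did not move as 1 group. Chrna2 was about 10.2-fold higher in FLCNKO libraries, Alpl about 1.93-fold higher and Gatm at 0.508 times the WT level, all without overlap between the groups. Ckb, Gamt and Slc6a8 differed by less than 0.25 log2 units, and Ckmt2 varied more within each group than between the groups. Since the genes were chosen with this contrast known, their differences are a description and carry no test. In the limma fit over all genes, 1 of the 7 (Chrna2) was called higher and 0 were called lower at an adjusted p under 0.05; 1.59% of all genes were called (218), of which 134 were higher (0.98%) and 84 lower (0.614%). Groups did not overlap for 4 of the 7 genes, 3 of them higher in FLCNKO and 1 lower, against 54.6% of all genes. At an unadjusted p under 0.05, 1659 of all genes were higher and 1402 lower (limma), which is the background for the unadjusted counts of the lists below. The median log2 difference was 0.14 over the 7 genes and 0.00457 over all 13677 genes. None of these counts is read as evidence about the 7 genes. With any 1 of the 4 libraries left out, or without the variance trend, 0 genes were called (limma; 1395 to 3455 with a library left out and 2702 without the trend at an unadjusted p under 0.05), so every call named below, that of Chrna2 included, rests on all 4 libraries and on the trend.

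**Figure D1:**
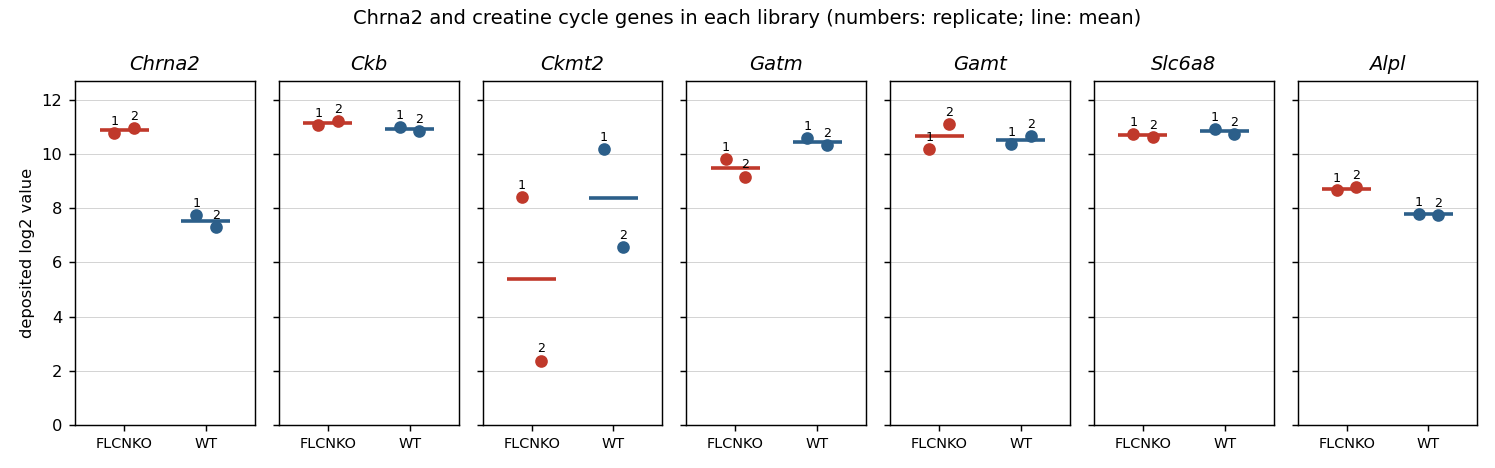
Deposited log2 values of Chrna2 and the 6 measured creatine cycle genes in each library, with FLCNKO libraries left of WT libraries in each panel; points are libraries, numbered by replicate, and lines are group means (n = 2 each). Chrna2 has the widest gap between groups, 3.03 log2 units, and Ckmt2 the widest spread within them.

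Chrna2 (ENSMUSG00000022041) had log2 values of 10.79 and 10.97 in FLCNKO libraries, against 7.76 and 7.30 in WT libraries. The replicates differed by 0.18 in FLCNKO and by 0.47 in WT, where the median difference between replicates over all genes was 0.247 and 0.147. A gap of 3.03 log2 units separated the lower FLCNKO library from the higher WT library. The means were 10.88 ± 0.13 in FLCNKO and 7.53 ± 0.33 in WT (SD, n = 2 each), a log2 difference of 3.35 ± 0.22 (SE; 95% interval 2.77 to 3.92). Ranked by difference, Chrna2 was 32nd from the highest of all genes and 8th among the genes called higher, and 48 genes had a difference above 3. In bulk tissue, more RNA per cell and more cells of the type that carries the transcript cannot be told apart, which holds for every difference below.

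Nicotinic receptors are rings of subunits, and the alpha subunits are marked by a pair of adjacent cysteines. The coding stretches around that pair are shown for Chrna2 and for Chrna5, the only other alpha gene with a value. The pair marks both as alpha genes. No adjacent pair was found between residues 150 and 300 in Chrnb1. None was found there in Chrnb2 either, but its longest annotated coding sequence, used here, has 727 residues against 512 in Chrna2. That range may miss the matching site in Chrnb2, so the search decides nothing for it. Capitals mark the codons of the cysteine pair, at residues 224 and 225 in Chrna2 and 234 and 235 in Chrna5; both stretches are 48 bases, 5′ to 3′ on the coding strand, from GENCODE M21 transcripts.
Chrna2: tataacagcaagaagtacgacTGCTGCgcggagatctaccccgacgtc
Chrna5: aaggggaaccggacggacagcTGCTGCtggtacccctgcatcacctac
Only 0.75% of the 31-base stretches of Chrna2 transcripts occurred in another gene, most of them in Chrna4, which had no value in the tables.

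Of the 15 other nicotinic subunit genes, 3 had a value, and 0 of the 3 were called (limma; 1 was lower at an unadjusted p under 0.05). Chrna5 had log2 values of 5.02 and 5.0 in FLCNKO libraries and 8.24 and 6.71 in WT libraries, a log2 difference of -2.47 with an adjusted p of 0.124. Chrnb1, the beta subunit of the muscle receptor, overlapped between groups, at 8.41 and 9.42 in FLCNKO libraries and 9.09 and 8.23 in WT libraries. Chrnb2, which pairs with alpha subunits in neuronal receptors, stood at 8.32 and 8.28 in FLCNKO libraries and 6.71 and 7.88 in WT libraries (difference 1.0, adjusted p = 0.266). Among these subunits, the groups were thus separated upward for Chrnb2, downward for Chrna5 and not for Chrnb1, and none of the 3 passed the test.

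Genes that make, carry or break down acetylcholine, or that help its receptors mature, gave 10 measured of 12 listed, with 0 called higher, 1 called lower and a median log2 difference of 0.15 (-0.20 without WT replicate 2, -0.57 without FLCNKO replicate 2). The list also holds Crat and Acly, which are not specific to acetylcholine. Their differences, 1.14 and 2.04, were the highest of the list (adjusted p = 0.0517 and 0.0829, limma), and the median without them was not computed. The 1 called gene was Ly6e, of the family of Ly6 proteins, some of which bind nicotinic receptors in mouse. It fell to 14.59 and 14.39 in FLCNKO libraries, against 15.68 and 15.42 in WT libraries (log2 difference -1.05 ± 0.15 SE, adjusted p = 0.0488, limma). The same family went both ways in this list. Lynx1 was higher, at 12.16 and 11.53 in FLCNKO libraries and 11.17 and 10.83 in WT libraries (difference 0.84, adjusted p = 0.138, limma). Ly6h was lower (difference -0.91, adjusted p = 0.329, limma). Chat and Slc18a3, which synthesise and load acetylcholine, had no value. The choline transporter gene Slc5a7 overlapped between groups, at 8.47 and 10.80 in FLCNKO libraries and 10.01 and 8.60 in WT libraries. The esterase genes Ache (5.02 and 6.43 in FLCNKO, 6.60 and 6.10 in WT) and Bche (14.17 and 14.59 in FLCNKO, 13.92 and 14.22 in WT) overlapped as well.

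The genes whose pattern over the 4 libraries lay nearest to that of Chrna2 were taken by the root mean square distance between log2 profiles centred on each gene's own mean. They were Gm17147 at a distance of 0.123, S100b at 0.151, Mreg at 0.215, A530076I17Rik at 0.225 and Spata17 at 0.248. S100b, a calcium-binding protein that fat cells and Schwann cells both make, stood at 11.88 and 12.01 in FLCNKO libraries and 9.03 and 8.72 in WT libraries. Mreg, a melanosome transport gene, stood at 10.02 and 9.80 in FLCNKO libraries and 6.60 and 5.94 in WT libraries. The nearness of these genes was measured on the same 4 libraries that separate FLCNKO from WT, so it restates that separation.

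On chromosome 14, Chrna2 lies between Ephx2 and Ptk2b in the RefSeq gene order of GRCm38.p6 and overlaps neither. Ephx2, the soluble epoxide hydrolase, had 17.30 and 16.90 in FLCNKO libraries against 15.28 and 15.24 in WT libraries, and it rose by 1.84 ± 0.17 (SE, adjusted p = 0.0336, limma). Ptk2b, a cytosolic tyrosine kinase, overlapped between groups, with 11.88 and 12.09 in FLCNKO libraries and 12.06 and 11.58 in WT libraries (difference 0.17 ± 0.20, adjusted p = 0.664). One neighbour of Chrna2 was therefore called in the same direction and the other was not called.

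**Figure D2:**
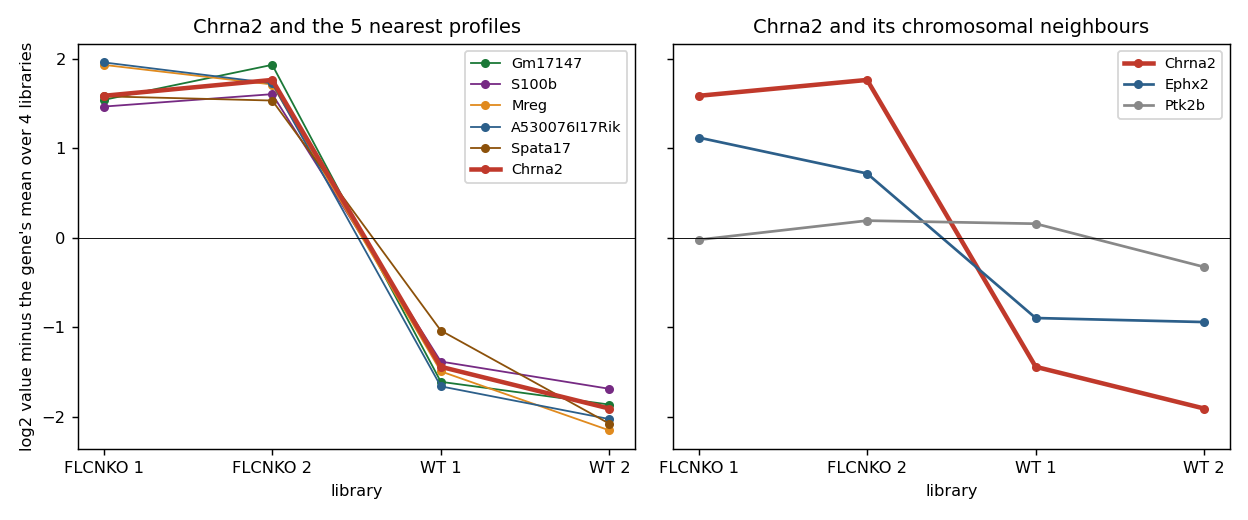
Log2 value minus the gene's own mean over the 4 libraries (vertical axis) in FLCNKO replicates 1 and 2 and WT replicates 1 and 2 (horizontal axis). The left panel shows Chrna2 with the 5 nearest profiles, at distances from 0.123 to 0.248; the right panel shows Chrna2 with its chromosomal neighbours, where Ephx2 separates the groups and Ptk2b does not.

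Some marker genes of other cell types were called in the same contrast as Chrna2, in which 1.59% of all genes were called. Of 16 measured brown and beige adipocyte markers, 3 were called higher (Cox8b, Ppargc1a and Otop1) and 0 lower, with a median log2 difference of 2.23. In this list 13 had a difference above 0 and 3 below, and 11 were higher and 2 lower at an unadjusted p under 0.05 (limma). Over all 13677 genes, 1659 were higher and 1402 lower at that threshold. The largest differences of the list were those of Elovl3 (4.22, adjusted p = 0.0825, limma) and Cox7a1 (3.57, adjusted p = 0.055, limma). The list was not uniform: Dio2 and Prdm16 differed by -0.08 and 0.02. Tmem26 (difference -0.87, adjusted p = 0.172, limma) and Ebf2 (difference -0.67, adjusted p = 0.0629, limma) had both FLCNKO libraries below both WT libraries. The summed level of the list, on the log2 scale, was 17.80 and 16.56 in FLCNKO libraries and 14.92 and 14.54 in WT libraries. Ucp1, the heat-producing uncoupling protein, stood at 13.79 and 10.06 in FLCNKO libraries and 10.60 and 7.42 in WT libraries (difference 2.92 ± 1.54 SE, adjusted p = 0.336). Ucp1 thus differed more between the replicates of each group than between the group means. The 3 called markers had less spread. Cox8b stood at 15.92 and 15.19 in FLCNKO libraries and 12.47 and 12.17 in WT libraries. Ppargc1a stood at 10.70 and 10.82 in FLCNKO libraries and 9.53 and 9.74 in WT libraries. Otop1 stood at 13.30 and 12.61 in FLCNKO libraries and 10.57 and 10.09 in WT libraries. Of 10 fibroblast markers, 3 were called lower (Col1a1, Col1a2 and Fn1), and all 10 had a difference below 0, with a median of -1.06. All 10 were lower at an unadjusted p under 0.05 (limma), as were 1402 of all 13677 genes. The summed level of the 10 was 19.26 and 19.18 in FLCNKO libraries and 20.31 and 20.16 in WT libraries. Of 12 macrophage and lymphocyte markers, 1 was called lower (Itgam). In this list 11 had a difference below 0 and 1 above, with a median of -0.87, and 8 were lower and 0 higher at an unadjusted p under 0.05 (limma). Their summed levels were 16.63 and 16.29 in FLCNKO libraries and 17.44 and 17.23 in WT libraries. Of 6 measured epithelial and duct markers, 1 was called lower (Trp63, difference -2.52, adjusted p = 0.0478, limma), the median was -1.31 and the summed level was 9.24 and 9.46 in FLCNKO libraries and 10.66 and 11.41 in WT libraries. Of 10 endothelial markers (median -0.0046) and 8 smooth muscle and pericyte markers (median 0.30), 0 were called in either list, with 1 lower at an unadjusted p under 0.05 in each. Of 6 measured Schwann cell and nerve markers, S100b was called higher, while Sox10, which defines Schwann cells, stood at 6.76 and 6.51 in FLCNKO libraries and 6.95 and 7.01 in WT libraries. Their part in the difference of Chrna2 was not tested.

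Creatine synthesis begins with Gatm, which joins arginine and glycine to guanidinoacetate, and ends with Gamt, which methylates that product to creatine. Gatm (ENSMUSG00000027199) had log2 values of 9.81 and 9.17 in FLCNKO libraries, against 10.61 and 10.32 in WT libraries. Both FLCNKO libraries lay below both WT libraries, with a gap of 0.52. The means were 9.49 ± 0.45 in FLCNKO and 10.47 ± 0.20 in WT (SD, n = 2 each), a log2 difference of -0.98 ± 0.26 (SE; 95% interval -1.63 to -0.32), and Gatm was not among the called genes. Gamt (ENSMUSG00000020150) stood at 10.20 and 11.12 in FLCNKO libraries and at 10.36 and 10.67 in WT libraries. The FLCNKO libraries were both the lowest and the highest for Gamt, and the difference was 0.14 ± 0.33 (SE; interval -0.70 to 0.98). It was -0.02 without WT replicate 1 and -0.32 without FLCNKO replicate 2. Within each library, Gatm minus Gamt was -0.39 and -1.94 in FLCNKO and 0.25 and -0.35 in WT. Both FLCNKO libraries lay below both WT libraries in this ratio, but FLCNKO replicate 1 and WT replicate 2 were only 0.04 apart.

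Substrates for Gatm and Gamt come from arginine and glycine supply and from the methyl donor cycle. Of 15 measured arginine and glycine genes, 1 was called higher and 0 lower, with a median log2 difference of -0.14 (0.24 without WT replicate 2). The called gene was Shmt1, the cytosolic enzyme that interconverts serine and glycine, which rose to 11.05 and 11.03 in FLCNKO libraries, against 9.23 and 9.79 in WT libraries (log2 difference 1.53 ± 0.22 SE, adjusted p = 0.0498, limma). Shmt1 was not called after repeated quantile normalization of the values. The arginine-making genes Ass1 (7.75 and 7.18 in FLCNKO, 7.01 and 8.75 in WT) and Asl (10.74 and 11.05 in FLCNKO, 10.88 and 11.17 in WT) overlapped between groups. Arg1, the liver arginase, stood at 1.0 and 5.42 in FLCNKO libraries and at 4.67 and 8.82 in WT libraries.

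Of 15 measured methyl donor genes, 0 were called in either direction (limma; 1 was higher and 0 lower at an unadjusted p under 0.05), and the median was -0.07 (0.16 without WT replicate 2). These genes make and spend S-adenosylmethionine, the methyl donor of Gamt. Mat2a, the adenosyltransferase of most tissues, had 14.51 and 14.82 in FLCNKO libraries and 14.76 and 14.70 in WT libraries, and its partner Mat2b had 12.67 and 12.61 in FLCNKO libraries and 12.43 and 12.42 in WT libraries. The liver form Mat1a was at 2.68 and 5.21 in FLCNKO libraries and at 5.02 and 10.58 in WT libraries. Mat1a and Arg1 were both highest in WT replicate 2, and so were Bhmt, with 1.0 and 5.0 in FLCNKO libraries and 3.94 and 8.05 in WT libraries, and Gnmt, with 3.63 and 6.21 in FLCNKO libraries and 4.42 and 8.12 in WT libraries. All 4 are best known from liver; Bhmt and Gnmt were picked out after their values were seen, and the part of liver-type transcripts in the list medians was not tested.

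Slc6a8 (ENSMUSG00000019558), which carries creatine into the cell, had log2 values of 10.75 and 10.64 in FLCNKO libraries and 10.94 and 10.75 in WT libraries. FLCNKO replicate 1 and WT replicate 2 had nearly the same value, the groups overlapped, and all 4 values lay in a narrow band. The means were 10.70 ± 0.08 in FLCNKO and 10.84 ± 0.14 in WT (SD, n = 2 each), with a difference of -0.15 ± 0.14 (SE; interval -0.49 to 0.20). Within each library, Slc6a8 minus Gatm was 0.95 and 1.47 in FLCNKO and 0.33 and 0.42 in WT, a difference of 0.83 that is mostly that of Gatm. Of the 31-base stretches of Slc6a8, 0.46% occurred in other genes. The gene overlaps the annotated non-coding RNA gene Gm32261, which had no value; as no source states whether strand was used in counting, reads of the overlap cannot be told apart.

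Other genes of creatine transport and phosphagens gave 7 measured of 8 listed, with 0 called in either direction (limma; 2 higher and 2 lower at an unadjusted p under 0.05) and a median of -0.12 (0.0836 without WT replicate 2, 0.23 without FLCNKO replicate 2). Slc6a12, a betaine and GABA transporter related to Slc6a8, overlapped between groups, at 8.35 and 8.37 in FLCNKO libraries and 8.28 and 8.68 in WT libraries. Slc6a13, a transporter of GABA and taurine also related to Slc6a8, stood at 13.19 and 13.75 in FLCNKO libraries and 11.66 and 12.62 in WT libraries (difference 1.34, adjusted p = 0.119). Slc22a2, an organic cation transporter that carries creatinine in kidney, stood at 8.32 and 8.30 in FLCNKO libraries and 6.34 and 5.48 in WT libraries (difference 2.40, adjusted p = 0.0647). Slc16a12, also in this list, stood at 11.19 and 11.55 in FLCNKO libraries and 10.86 and 11.06 in WT libraries (difference 0.41, adjusted p = 0.246, limma). Slc16a9, a carnitine transporter gene, lay the other way, at 11.40 and 10.79 in FLCNKO libraries and 12.12 and 12.22 in WT libraries (difference -1.08, adjusted p = 0.0775). The taurine transporter gene Slc6a6 was also below WT in both FLCNKO libraries (difference -0.34, adjusted p = 0.194). None of these genes passed the test, and Slc22a2, Slc16a12, Slc16a9 and Slc6a6 were picked out after their values were seen.

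The creatine kinases are encoded by related genes, and their reads could be shared between them. Their coding stretches around the active-site cysteine are shown for this reason, with the codon of that cysteine in capitals (residue 283 in Ckb and Ckm, residue 317 in Ckmt2 and Ckmt1). Each is 45 bases, 5′ to 3′ on the coding strand, from GENCODE M21 transcripts, and Ckm, the muscle kinase, is included as the closest relative outside the cycle.
Ckb: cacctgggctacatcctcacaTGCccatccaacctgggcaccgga
Ckm: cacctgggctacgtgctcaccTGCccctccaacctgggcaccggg
Ckmt2: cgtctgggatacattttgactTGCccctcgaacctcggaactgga
Ckmt1: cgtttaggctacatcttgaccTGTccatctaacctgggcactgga
In this window Ckb and Ckm shared 40 of 45 bases, Ckb and Ckmt2 33, and Ckmt2 and Ckmt1 35. Over the whole coding sequence, identity was 77.6% between Ckb and Ckm, 72.3% between Ckb and Ckmt2 and 77.5% between Ckmt2 and Ckmt1. Stretches of 31 bases found in another gene made up 0.62% of those of Ckmt2 and 17.52% of those of Ckb. Of the 531 shared stretches of Ckb, 504 were shared with the annotated gene Gm12892. Gm12892 had no value in the tables, so the value of Ckb is uncertain to the extent that its reads were divided or dropped in the authors' counting.

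Ckb (ENSMUSG00000001270) had log2 values of 11.06 and 11.23 in FLCNKO libraries, against 11.01 and 10.84 in WT libraries. The groups did not overlap, but only 0.05 separated the lower FLCNKO library from the higher WT library, less than the 0.17 between the FLCNKO replicates. The means were 11.15 ± 0.12 in FLCNKO and 10.93 ± 0.12 in WT (SD, n = 2 each), with a difference of 0.22 ± 0.14 (SE; interval -0.12 to 0.57).

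Ckmt2 (ENSMUSG00000021622), the sarcomeric mitochondrial kinase of muscle, had log2 values of 8.41 and 2.37 in FLCNKO libraries and 10.17 and 6.58 in WT libraries. The replicates of each group lay farther apart than the group means, the groups overlapped, and 2.37 is the lowest value that FLCNKO replicate 2 holds for any gene, shared by 70 genes. The means were 5.39 ± 4.27 in FLCNKO and 8.37 ± 2.54 in WT (SD, n = 2 each), with a difference of -2.98 ± 2.23 (SE; interval -8.69 to 2.72). Without FLCNKO replicate 2 the difference was 0.03. Of the 7 genes, Ckmt2 alone had a mean below 8 over the 4 libraries.

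Ckmt2 followed the skeletal muscle markers from library to library. The median of 22 measured markers of 26 listed was 11.64 and 5.51 in FLCNKO libraries and 12.66 and 9.68 in WT libraries, and their summed level was 16.63 and 13.96 in FLCNKO libraries and 17.70 and 14.85 in WT libraries. Ckm stood at 12.61 and 3.94 in FLCNKO libraries and 13.93 and 10.59 in WT libraries. The order of the libraries for Ckmt2 was WT replicate 1, FLCNKO replicate 1, WT replicate 2 and FLCNKO replicate 2, from high to low. The same order held for 20 of the 22 markers (90.9%; the exceptions were Acta1 and Myh1), for 531 of all genes (3.88%) and, among the other measured genes of the cycle, for Slc6a8 alone. Ckmt2 minus the marker median was -3.23 and -3.14 in FLCNKO libraries and -2.49 and -3.11 in WT libraries. The libraries thus lay much closer together relative to the marker median than in Ckmt2 itself. Ckmt2 minus Ckm was -4.20 and -1.57 in FLCNKO libraries and -3.75 and -4.02 in WT libraries, so FLCNKO replicate 2 stood apart by that measure. Since Ckmt2 was at the lowest value of FLCNKO replicate 2, both measures are uncertain in that library. Myh2 and Myoz1 stood, as Ckmt2 did, at the lowest value of FLCNKO replicate 2. In all, 0 of the 22 markers were called (limma), 0 had an unadjusted p under 0.05, and the list median was -2.21. The part of muscle tissue in the Ckmt2 values was not tested.

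**Figure D3:**
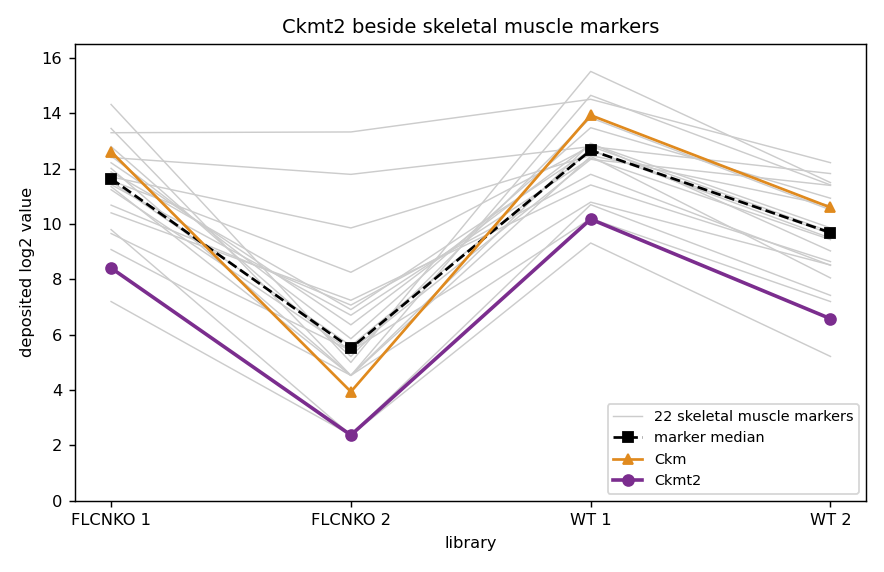
Deposited log2 values (vertical axis) of Ckmt2, Ckm, the 22 measured skeletal muscle markers and their median in FLCNKO replicates 1 and 2 and WT replicates 1 and 2 (horizontal axis). Most lines dip in FLCNKO replicate 2, where the marker median is 5.51 and Ckmt2 is 2.37, and peak in WT replicate 1, at 12.66 and 10.17.

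The kinases at mitochondria draw ATP through ADP/ATP carriers and pores, and adenylate kinases move phosphate in parallel. Of 13 measured genes of this list, 11 had a difference above 0 and 8 had all FLCNKO values above all WT values. Of all genes, 54.6% had groups apart in one direction or the other, and the share for the higher direction alone was not computed. In this list 0 were called in either direction (limma), and the median was 0.39. At an unadjusted p under 0.05, 7 were higher and 0 lower (limma), against 1659 higher and 1402 lower of all 13677 genes. The carrier gene Slc25a4 had 14.95 and 14.97 in FLCNKO libraries and 14.60 and 14.39 in WT libraries (difference 0.46, adjusted p = 0.113). Slc25a5, the second carrier, had 14.89 and 14.93 in FLCNKO libraries and 14.36 and 14.59 in WT libraries (difference 0.44). Vdac1, the pore of the outer membrane, had 14.93 and 14.72 in FLCNKO libraries and 14.19 and 14.20 in WT libraries (difference 0.63, adjusted p = 0.0702). The difference of Ckb, 0.22, lay within the range of this list, -0.68 to 0.74.

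Alpl (ENSMUSG00000028766), the phosphatase that splits phosphocreatine, had log2 values of 8.67 and 8.78 in FLCNKO libraries, against 7.79 and 7.76 in WT libraries. The replicates of each group lay close together, and both FLCNKO libraries were above both WT libraries by at least 0.88. The means were 8.72 ± 0.08 in FLCNKO and 7.78 ± 0.02 in WT (SD, n = 2 each), a log2 difference of 0.95 ± 0.22 (SE; interval 0.39 to 1.5), and Alpl was not among the called genes. Set against the kinase in the same library, Alpl minus Ckb was -2.40 and -2.46 in FLCNKO and -3.22 and -3.08 in WT, a difference of 0.72. No 31-base stretch of Alpl, Gatm or Gamt occurred in another gene.

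Relatives of Alpl and genes of phosphate and pyrophosphate handling gave 7 measured of 11 listed names, with 1 called higher, 0 lower and a median of 0.25 (0.39 without FLCNKO replicate 1). Ank and Ankh, both listed, are names of the same mouse gene, which was measured as Ank. The called gene was Slc20a2, a sodium-driven phosphate importer, which rose to 13.27 and 13.54 in FLCNKO libraries, against 12.07 and 12.03 in WT libraries (log2 difference 1.36 ± 0.13 SE, adjusted p = 0.0345, limma). Enpp1, which makes pyrophosphate, a substrate of Alpl, stood at 7.10 and 6.91 in FLCNKO libraries and 8.15 and 7.76 in WT libraries (difference -0.96, adjusted p = 0.172). Ank, which exports pyrophosphate or its precursor, stood at 12.80 and 12.83 in FLCNKO libraries and 12.26 and 12.03 in WT libraries (difference 0.67, adjusted p = 0.067). Phospho2, a phosphatase gene, stood at 11.36 and 11.15 in FLCNKO libraries and 10.83 and 10.59 in WT libraries (difference 0.54, adjusted p = 0.126). Alpl lies between Rap1gap and Ece1 on chromosome 4 in the RefSeq order. Rap1gap, which switches off the small GTPase Rap1, stood at 8.79 and 8.65 in FLCNKO libraries and 5.40 and 6.49 in WT libraries (difference 2.77 ± 0.46 SE, adjusted p = 0.0603, limma), and Ece1, an endothelin-converting enzyme, overlapped between groups (difference -0.20, adjusted p = 0.494).

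Over all 7 related lists, counted without Ckm, 2 of 69 genes were called higher and 1 lower, which is 4.35%, against 1.59% of all genes, and the median log2 difference was 0.21 against 0.00457 over all genes. These lists were put together with earlier results of these data known, and nothing particular to them is read from the counts.

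**Figure D4:**
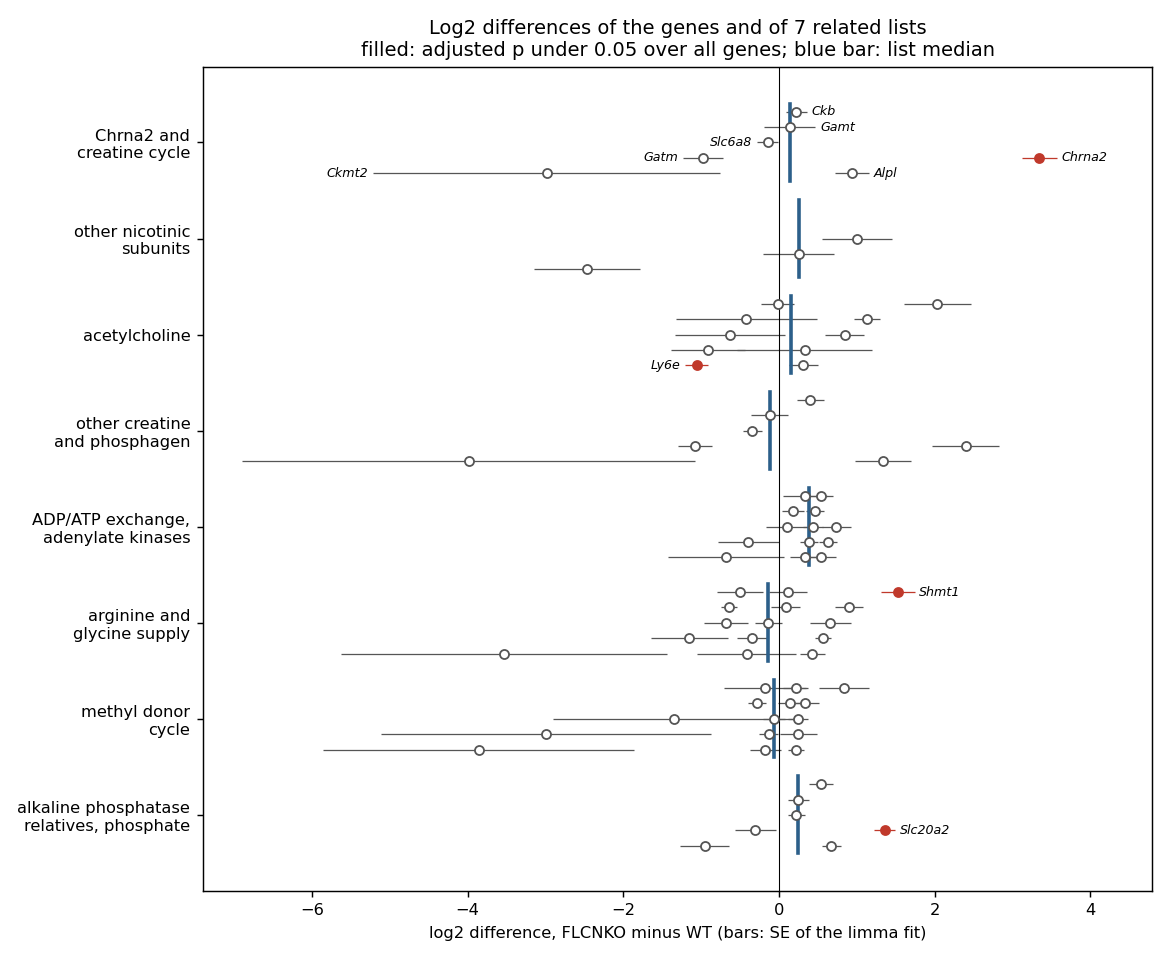
Log2 differences, FLCNKO minus WT, with the SE of the limma fit (horizontal axis), for Chrna2 and the creatine cycle genes and for 7 related lists (rows). Filled points passed an adjusted p of 0.05 over all genes and blue bars are list medians; Chrna2, Shmt1 and Slc20a2 are filled on the higher side and Ly6e on the lower side.

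The promoters of Alpl and Gatm, the cycle genes that separated the groups most clearly, and of Ckmt2, which followed the muscle markers, are shown with the motifs found in them. RefSeq promoter windows of GRCm38.p6 were at hand for 6 of the 8 genes, and not for Chrna2 and Slc6a8. The 250 bases before the start of transcription were searched on both strands for CACGTG, the E-box bound by the MiT/TFE factors that folliculin controls, for AAGGTCA, the core of the site of the estrogen-related receptors, and for CAGCTG, an E-box of the muscle regulatory factors. None of the 3 motifs overlaps another in the windows shown. Of all 32851 RefSeq promoter windows of this length, 6.02% held CACGTG, 4.08% the AAGGTCA core and 13.0% CAGCTG. Alpl has 2 annotated starts, and capitals mark CAGCTG in the first Alpl window and in that of Ckmt2. The windows lie on the minus strand at chr4:137796385-137796634 (Alpl, first), chr4:137766476-137766725 (Alpl, second), chr2:122611278-122611527 (Gatm) and chr13:91876886-91877135 (Ckmt2), and read 5′ to 3′ on that strand.
Alpl, first: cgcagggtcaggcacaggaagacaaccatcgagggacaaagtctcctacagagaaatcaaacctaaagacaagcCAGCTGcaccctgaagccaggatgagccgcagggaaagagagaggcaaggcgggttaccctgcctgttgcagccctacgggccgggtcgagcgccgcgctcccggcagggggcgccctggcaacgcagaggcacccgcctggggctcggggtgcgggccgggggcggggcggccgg
Alpl, second: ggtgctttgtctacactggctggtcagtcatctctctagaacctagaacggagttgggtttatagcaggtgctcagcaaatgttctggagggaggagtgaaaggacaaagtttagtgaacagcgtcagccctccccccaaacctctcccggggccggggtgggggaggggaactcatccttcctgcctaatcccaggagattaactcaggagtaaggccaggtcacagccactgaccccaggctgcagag
Gatm: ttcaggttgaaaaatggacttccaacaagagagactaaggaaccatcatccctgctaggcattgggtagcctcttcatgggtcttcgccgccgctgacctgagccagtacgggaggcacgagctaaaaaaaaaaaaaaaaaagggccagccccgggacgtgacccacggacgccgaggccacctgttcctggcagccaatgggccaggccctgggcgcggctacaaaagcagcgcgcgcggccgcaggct
Ckmt2: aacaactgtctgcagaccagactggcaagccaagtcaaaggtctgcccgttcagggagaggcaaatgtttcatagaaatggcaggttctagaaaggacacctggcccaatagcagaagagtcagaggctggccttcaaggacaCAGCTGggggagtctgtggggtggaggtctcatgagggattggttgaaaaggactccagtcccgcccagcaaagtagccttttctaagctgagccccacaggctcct
The first Alpl window had a GC content of 68.4% and 20 CpG sites, and the second 56.0% and 4, against medians of 52.4% and 6 over all windows. The Gatm window had 59.2% and 17 CpG sites and none of the 3 motifs, and that of Ckmt2 had 54.0% and 2. The CACGTG E-box was found in none of the windows of the 6 genes, and the AAGGTCA core only in a window of Ckmt1. A match is a run of letters and not a bound site, and its absence says only that these letters are not in the window.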

How the data were processed

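RNA of inguinal fat was isolated with Trizol and columns and sequenced on Illumina libraries, per the labels' protocols. The submitters' processing notes name STAR, limma and mouse build mm9 with no versions; the counting program, annotation and strand setting are not stated there. The authors deposited 1 table per library of log2 expression values for 13677 Ensembl genes, normalized to nearly equal distributions, which hides any change common to most genes, and reads and depths could not be recovered. Ensembl identifiers gave a symbol for 13592 genes and none for 85.

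The library titles gave the groups and replicate numbers. The deposited log2 values of the 4 libraries were fitted with limma 3.58.1 in R 4.3.3, with group as the only term, an expression trend in the variance (residual degrees of freedom 2, prior 3.09), two-sided tests and Benjamini-Hochberg adjustment over all genes at 0.05. An exact permutation test of 2 against 2 libraries cannot go below 0.333. No low-value filter was applied.

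The 8 genes and the lists were chosen with earlier results of these data known. Named genes are the 8 genes, Flcn, the 5 profiles nearest to Chrna2, and in each related list the called genes and the first 3 measured ones. Those named beyond this were picked out after their values were seen, or by position. They are Slc22a2, Slc16a12, Slc16a9, Slc6a6, Bhmt, Gnmt, Lynx1, Ly6h, Crat, Acly, the chromosomal neighbours and the cell type markers. Coding stretches and shared 31-base stretches come from GENCODE M21 and promoter windows from RefSeq, both of GRCm38; as the files use mm9, no other coordinates are given. Alternatives were a minimum mean value of 8, repeated quantile normalization, median centring, no trend, robust moderation, array weights, the replicate number as a block and each library left out.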

Additional observations from a re-analysis of the deposited data

How the results depend on the processing

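Against 218 genes called, the count was 344 with robust moderation, 842 with the replicate number as a block, 325 with the filter, 216 after repeated quantile normalization, 218 after median centring and 271 with array weights. No gene was called without the trend (limma; 2702 at an unadjusted p under 0.05) or with any library left out (0 to 0; 1395 without WT replicate 1, 1807 without WT replicate 2, 3281 without FLCNKO replicate 1 and 3455 without FLCNKO replicate 2 at an unadjusted p under 0.05), where 1 residual degree of freedom remains and the lone library is taken to vary like the other group. No label says that same-numbered libraries share an animal or batch, so the block is not read as pairing, although the deviations of same-numbered libraries correlated at 0.363; whether they share a source was not tested. Gatm was called only with the block. Chrna2 was called in 6 of 11 alternatives, not without the trend nor with a library left out, and its difference ranged from 3.11 to 3.58 with 1 library left out. Of 76 differences of the 7 genes recomputed, 73 kept their direction. Gamt turned to -0.02 without WT replicate 1 and -0.32 without FLCNKO replicate 2 (range -0.32 to 0.60), and Ckmt2 to 0.0336 without FLCNKO replicate 2 (range -6.00 to 0.0336); Ckmt2 has no value under the filter. Ckmt2 relative to the muscle median differed by -0.39 between groups, and by 1.0, in the opposite direction, relative to Ckm alone.

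With 1 library left out, list medians ranged from -0.25 to 0.76 for the other nicotinic subunits, from -0.57 to 0.50 for acetylcholine, from -0.31 to 0.23 for other creatine genes, from -0.27 to 0.24 for arginine and glycine supply and from -0.0712 to 0.16 for methyl donor genes. With the filter the arginine and glycine median was 0.0876, the methyl donor median 0.18 the acetylcholine median 0.33 and the alkaline phosphatase list median 0.39. With the block, 3 genes of the acetylcholine list and 3 other creatine genes were called. The cause of these changes was not tested. Groups of 2 libraries are too small to test for a library that stands apart, and values near the low end of a table, such as Ckmt2 in FLCNKO replicate 2, are the least certain.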

Other observations

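The measured genes next to the other creatine cycle genes in the RefSeq order were not called by limma. Ppip5k1, an inositol pyrophosphate kinase gene beside the unmeasured Ckmt1 on chromosome 2, stood at 14.34 and 14.57 in FLCNKO libraries and 13.54 and 13.66 in WT libraries (log2 difference 0.85 ± 0.13 SE, adjusted p = 0.0541). Pnck, beside Slc6a8 on chromosome X, stood at 6.60 and 6.21 in FLCNKO libraries and 3.94 and 5.21 in WT libraries (difference 1.83 ± 0.80 SE, adjusted p = 0.263). Ndufs7, a complex I subunit gene beside Gamt on chromosome 10, stood at 13.10 and 12.98 in FLCNKO libraries and 12.71 and 12.60 in WT libraries (difference 0.38 ± 0.11 SE, adjusted p = 0.134). Ppip5k1, Pnck and Ndufs7 had FLCNKO values above WT values without passing the test, and so had the neighbours Trmt61a, Zcchc9 and Bcap31. Mark3 and Dazap1 had FLCNKO values below WT values. Over all genes, 54.6% had groups apart in one direction or the other. On the other side of Gamt, Dazap1 differed by -0.16, and on the other side of Slc6a8, Bcap31 differed by 0.08. The neighbours of Ckb (Mark3 at -0.12 and Trmt61a at 0.64) and of Ckmt2 (Zcchc9 at 0.19 and Rasgrf2 at -0.17) had adjusted p-values from 0.387 to 0.639.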
